A study of Mus musculus with 8 samples.

Results

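The stretch described here lies in the proximal part of mouse chromosome 14, from 7817957 to 55722263 in the GRCm38 (mm10) build, a span of 47.9 Mb, with GENCODE M21 gene models. Of 485 protein-coding genes that start within it, 7 were left out by symbol (Wnt5a, Plau, Adk, Bmp4, Mmp14, Rpl15 and Rps24). Another 262 had a mean below 1 CPM (counts scaled to a common library size with TMM, the trimmed mean of M-values) in every line, which left 216 members of the 53379 genes in the files. The 216 members all passed the filter on low counts and were among the 15890 genes tested. The bounds of the stretch were drawn with differences between these lines already known, and the CPM minimum uses the same libraries, so the members were chosen by position, by their CPM and, through the bounds, by the differences themselves. Those differences are given as a description and support nothing by themselves. The closest members above the minimum were Mustn1, at 1.16 CPM in pB3, and Gng2, at 1.16 CPM in Epcam hi, and the closest genes below it were Gm3839, at 0.878 CPM in Epcam hi, and Rpgrip1, at 0.868 CPM in pB2.

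Bulk RNA sequencing covered 4 mouse mammary carcinoma cell lines of C57BL/6 background, with 2 libraries per line, from untreated cells in monolayer. The pB2 and pB3 lines came from tumours of MMTV-PyMT mice, in which the mouse mammary tumour virus promoter drives the polyoma middle T oncogene in mammary epithelium. Epcam hi and 687g came from the MMTV-PyMT-Snail-IRES-YFP reporter model, so all 4 lines share the oncogene. Whether a line is 1 clone, how old the mice were, and whether replicates were separate cultures is not given in the sources used here, and the calls then measure the spread between these libraries only.

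Total counts ran from 12442730 to 19149916 per library. Of 8 epithelial markers, 7 reached 1 CPM in pB2, pB3 and Epcam hi and 5 in 687g, where Epcam and Cdh1 stood at only 3.77 and 1.32 CPM. Among the lists for leukocytes, endothelium, fibroblasts and adipocytes, the summed leukocyte list of 7 genes was highest in Epcam hi, at 14.2 to 35.8 CPM against 0.666 to 1.81 in the other lines, and 1 gene, Cd68, made up most of it. The leukocyte-defining gene Ptprc had 9 counts in Epcam hi and Cd3e had 1. The fibroblast list was lowest there, at 2.35 to 2.81 CPM against 15.1 to 81 elsewhere. The endothelial list stayed below 1 CPM in all 8 libraries. The adipocyte list was between 0.281 and 0.492 CPM in Epcam hi, 0.194 and 0.336 in pB3, and 1.04 and 1.85 in pB2. It was highest in 687g, at 9.65 to 16.3 CPM, where Fabp4 had a mean of 13 CPM. By the share of genes over 2-fold apart, the Epcam hi replicates were the least alike, at 13.4% against 2.96% to 6.32% in the other lines. By a chi-square value per gene on the counts, those of 687g were, at 55.1 against 34.8 in Epcam hi. Values are therefore given for each library, and a value without an Epcam hi library is given where it moves the result by over 1.5 times.

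Mouse chromosomes carry the centromere at one end, and their coordinates count from it, so a proximal stretch is the part next to the centromere. Its genes share a position rather than a function: this one holds widely used genes for proteasome, RNA, mitochondrial and secretory proteins beside tissue-restricted genes such as those of the myosin heavy chains and of olfactory receptors. As background, whole segments of chromosomes often differ in number between carcinoma cell lines. Only RNA was measured here, and the DNA of these lines was not tested.

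Epcam hi was the line that departed most from the other 3 over the stretch. Its members had a median log2 fold of -0.60 against the mean of the other lines, a level 1.52-fold lower, where the median over all 15890 genes tested was 0.05. The same median was 0.07 in pB2, 0.23 in pB3 and 0.34 in 687g, where all genes gave -0.04, 0.00 and -0.02. These 4 comparisons use the same libraries, so a low line raises the value of each other line, and they are not separate results. Taken pair by pair, the Epcam hi median was -0.48 against pB2, -0.65 against pB3 and -0.70 against 687g. The medians of the other 3 lines lay closer together, at -0.07 for pB2 against pB3, -0.24 for pB2 against 687g and -0.05 for pB3 against 687g. Single members still differed between them. The interquartile range over members was 1.06 for pB2 against pB3 and 1.29 for pB2 against 687g (1.31 and 1.57 over all genes). It was 0.78 for pB3 against 687g and 0.99 for Epcam hi against 687g (0.86 and 1.16 over all genes).

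Both Epcam hi libraries showed the same shift, although they differed at many single genes. On the log2(CPM + 0.1) scale the median member lay -0.61 and -0.60 from the mean of the other lines in Epcam hi replicates 1 and 2. For the libraries of pB2 the same value was -0.02 and 0.09, for those of pB3 0.23 and 0.27, and for those of 687g 0.33 and 0.31. The 2 Epcam hi libraries thus sat below the 6 others, with no overlap. Of the 216 members, 174 and 177 lay below the mean of the other lines in the 2 Epcam hi libraries. Added together, the members reached 10560 and 11048 CPM in Epcam hi, against 14899 and 14673 in pB2, 17561 and 17443 in pB3, and 18300 and 19436 in 687g. In bulk RNA, a lower level per cell and fewer cells with the transcript cannot be told apart. With each of the 8 libraries left out in turn, the fitted median ran from -0.69 without Epcam hi replicate 2 to -0.60 without Epcam hi replicate 1. Whether the Epcam hi values of the leukocyte and fibroblast lists have a part in the shift was not tested.

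**Figure D1:**
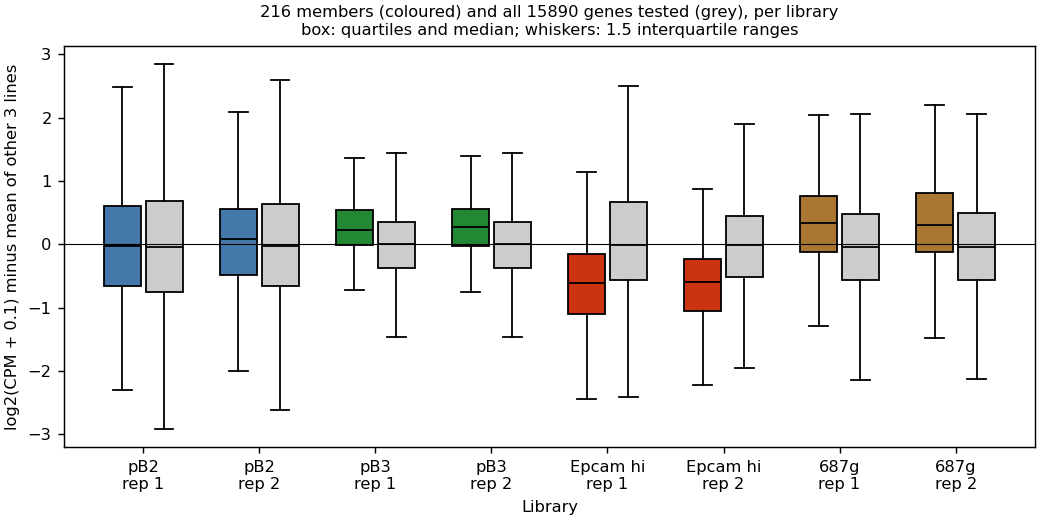
Boxes of log2(CPM + 0.1) minus the mean of the other 3 lines, for the 216 members (coloured) and all 15890 genes tested (grey), 1 pair of boxes per library; boxes are quartiles with the median, whiskers reach 1.5 interquartile ranges. The member medians of the Epcam hi libraries lie at -0.61 and -0.60, below those of the 6 other libraries, while the grey medians stay near 0.

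Counted gene by gene, 123 members were called lower in Epcam hi than in the mean of the other lines (edgeR quasi-likelihood test, Benjamini-Hochberg adjusted p under 0.05 over all genes), 19 higher, and 74 were not called. Without Epcam hi replicate 1 and replicate 2 the numbers lower were 96 and 119. The mean of the other lines is one of log levels, so a line with a very low level pulls it down. Over all genes tested 17.6% were called lower and 22.6% higher in that comparison. Against single lines, 95 members were called lower and 35 higher than in pB2 (25.6% and 25.8% of all genes), 108 and 10 than in pB3 (14.8% and 14.6%), and 113 and 8 than in 687g (18.4% and 18%). Without pB3 replicate 2, fewer were called lower than in pB3, and fewer genes were called in that comparison over all genes. The Epcam hi median against pB3 ran from -0.72 to -0.66 with each library left out. For the other lines against the rest, 67 members were called higher and 55 lower in pB2 (28.8% and 24.9% of all genes), 59 and 9 in pB3 (14.8% and 10%), and 86 and 23 in 687g (21.4% and 17.2%). Without pB3 replicate 1 or 2, fewer members were called higher in pB3, and fewer genes were called over all genes. The small number called lower in pB3 also changed with the library left out. The pB3 median ran from 0.23 to 0.27 with each library left out.

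Without a model, both Epcam hi libraries lay below the 6 others in 93 members and above them in 5, where all genes gave 11.3% and 13.2%. With 1 Epcam hi library left out, the other lay below the 6 in 107 (without replicate 1) and 114 members (without replicate 2). Apart from changes in scaling, a library left out makes the condition easier to meet, so these larger numbers are no check on the 93. The 5 were Oxsm, Arhgef3, Erc2, Ang2 and Rem2, and they became 3 without pB2 replicate 2. The corresponding numbers below and above were 39 and 50 in pB2 (21.9% and 24.2% of all genes), 3 and 26 in pB3 (6.1% and 7.78%), and 13 and 54 in 687g (12% and 12.6%). Low values for pB3 were few. Under the easier condition, the 3 became 6 without pB3 replicate 1 or Epcam hi replicate 2, and 5 without pB3 replicate 2 or Epcam hi replicate 1. Epcam hi had the lowest mean of the 4 lines in 124 members, against 22.8% of all genes, and the highest mean in 10, against 28.2%.

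The differences were mostly moderate and on the same side. In Epcam hi, 103 members had log2 folds between -1 and -0.25, 59 were at -1 or below, 30 lay within 0.25 of 0, 13 were between 0.25 and 1, and 11 were at 1 or above. The quartiles were -1.04 and -0.26, against -0.46 and 0.61 over all genes, so the interquartile range was 0.79 for members and 1.06 for all genes. In all, 175 members had a log2 fold below 0, which is 81% of them and 47.5% of all genes.

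**Figure D2:**
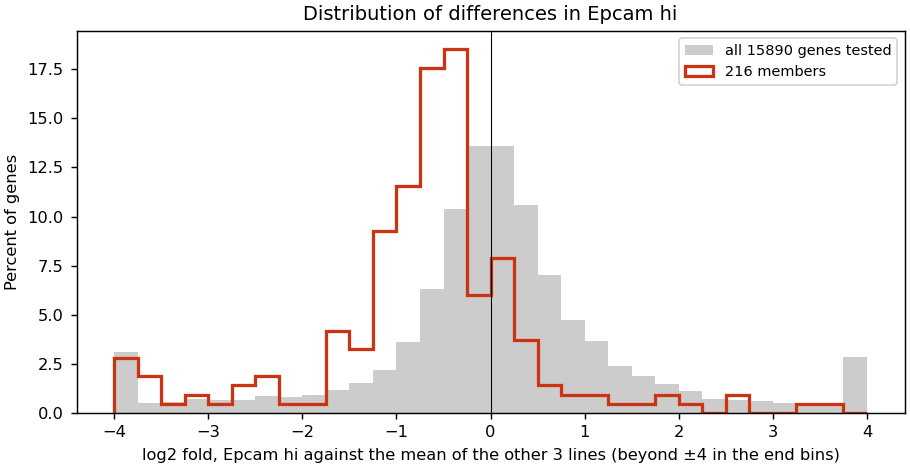
Percent of genes (vertical axis) by log2 fold of Epcam hi against the mean of the other 3 lines, in steps of 0.25, for the 216 members (red outline) and all 15890 genes tested (grey); values beyond 4 in either direction fall in the end bins. The members peak to the left of 0, with a median of -0.60, where all genes centre on 0.05.

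The lower level was also measured in members far above the detection limit. In the 129 members that reached 10 CPM in all 4 lines, the Epcam hi median was -0.56, with 112 below 0, 84 called lower and 4 called higher. The 7393 genes of the genome at that level had a median of -0.03, with 52.2% below 0, 1324 called lower and 1298 called higher. The 53 members that reached 10 CPM in some lines only had a median of -0.79, and the 34 below 10 CPM in every line had one of -0.72. There were 177 members at 1 CPM or more in all 4 lines and 18 at that level in 1 line only: 7 in pB2, 5 in pB3, 5 in 687g and 1 in Epcam hi. These 18 had to differ by the way members were chosen.

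Along the stretch the Epcam hi values were low from end to end. In 11 consecutive windows, 10 of 20 members and the last of 16, the Epcam hi median ran from -0.83 to -0.44 and was below 0 in all 11. The highest of these medians was that of the window from Timm23 to Tspan14, and the lowest that of the final window, from Dhrs4 to Rabggta. In pB2 the window medians ran from -0.50 to 0.81 and changed sign. The pB2 members were high in the last 2 windows, at 0.53 and 0.81, and low at -0.50 in the window from Pnp to Mrpl52. The pB3 medians ran from 0.04 to 0.45, and those of 687g from -0.10 to 0.59.

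**Figure D3:**
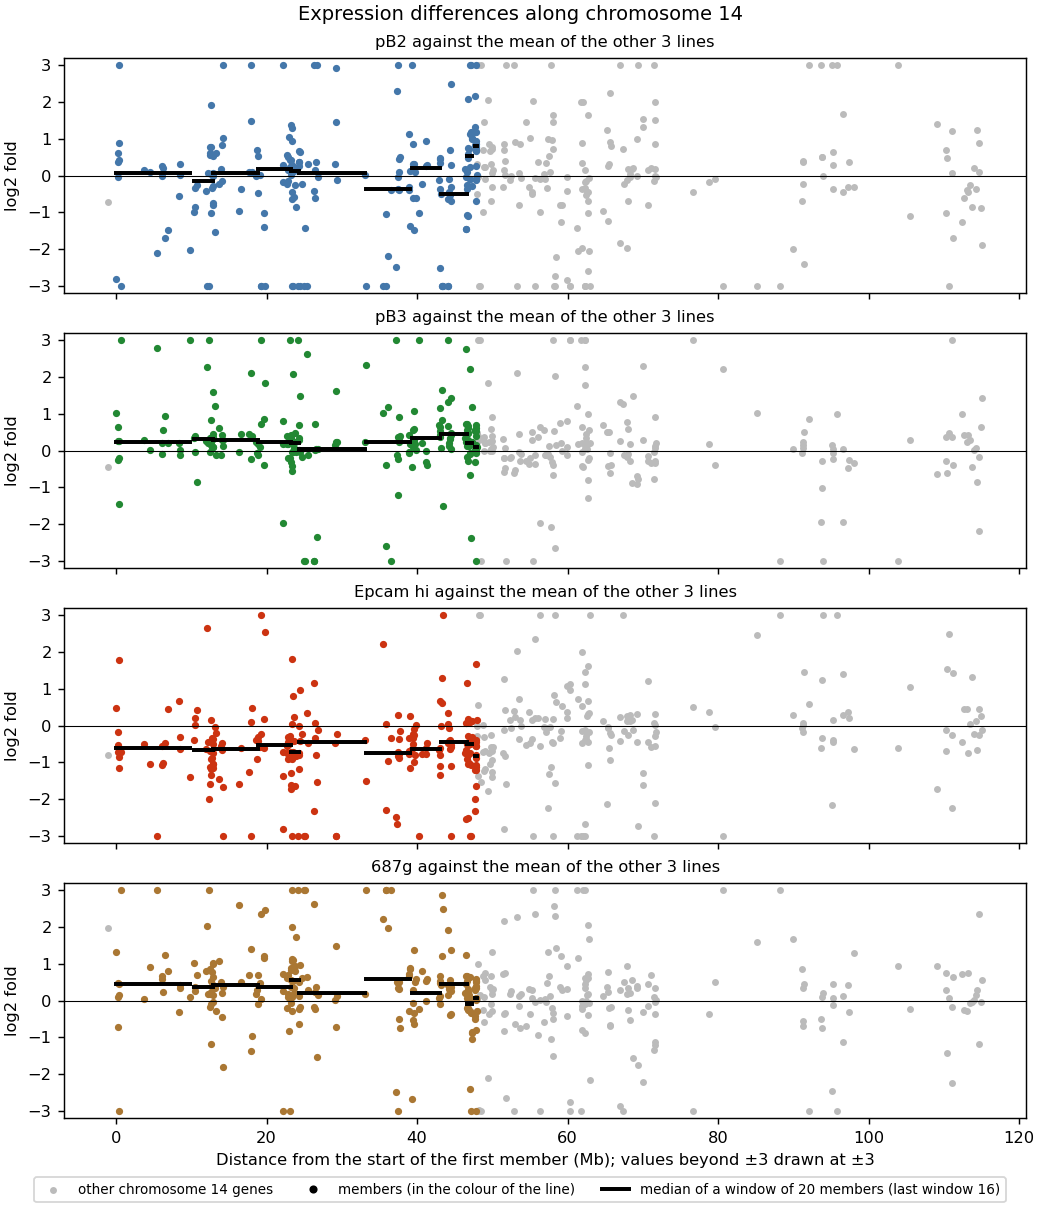
Log2 fold of each line against the mean of the other 3 lines (vertical axis, 1 panel per line) by distance in Mb from the start of the first member; coloured points are members, grey points other protein-coding genes of chromosome 14 at 1 CPM or more in a line, and black bars window medians. In the Epcam hi panel the 11 bars lie between -0.83 and -0.44, and grey points further along the chromosome spread around 0.

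The low values went on past the distal bound. Of 33 protein-coding genes at 1 CPM or more that start within 5 Mb after it, 25 had an Epcam hi log2 fold below 0, with a median of -0.68, and 18 were called lower and 4 higher. By Mb, the medians were -0.28 (11 genes), -0.74 (7), -0.95 (5), -0.73 (7) and 0.16 (3). Further along the chromosome, 152 such genes had a median of -0.03, with 32 called lower and 35 higher. The shares over all genes tested were 17.6% lower and 22.6% higher. A single gene at that level starts within 5 Mb before the proximal bound, and its Epcam hi log2 fold of -0.80 was not called. Its folds were -0.73 in pB2, -0.44 in pB3 and 1.96 in 687g, where it was called higher, so it did not set Epcam hi apart. Over the 20 chromosomes the median of protein-coding genes that are not members ran from -0.23 on chromosome 5 to 0.34 on chromosome 6 in Epcam hi.

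Genes of other biotypes inside the bounds did not show the shift as a group. The 66 that were tested, mostly low, had an Epcam hi median of 0.12, with 31 below 0, 10 called lower and 6 higher. Of all genes tested, 17.6% were called lower and 22.6% higher. Only 3 of the 66 reached 10 CPM in a line, with folds below 0 in Epcam hi. The antisense genes 2810402E24Rik and Gm26782 were at -0.64 ± 0.23 and -0.71 ± 0.21 (SE), and Gm37194 was at -0.24 ± 0.41. In none of the 3 did both Epcam hi libraries lie below all others. For 2810402E24Rik they had 4.14 and 4.65 CPM, and 687g had 3.35 and 4.90. For Gm26782 they had 5.68 and 8.80 CPM, and pB2 had 7.545 and 7.522. For Gm37194 they had 8.07 and 4.21 CPM, and pB2 had 4.88 and 3.39. Reads were counted by strand, per the series' design text, so an antisense gene is counted apart from its partner. The 7 genes left out by symbol had a median of -1.05, with 5 called lower and 1 higher.

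Promoters are shown for the 2 members with the largest folds each way among those at a mean of 10 CPM or more in Epcam hi or in the other lines, since they differ most at levels well above the detection limit. The sequences are those of RefSeq on GRCm38.p6, 250 bases before to 50 after the start, 5′ to 3′ on the gene's strand. Capitals mark the GC box GGGCGG, or CCGCCC on the other strand, and the TATA motif TATAAA, or TTTATA on the other strand, of which no match was found in these 4. Zcchc24 (chr14:25769023-25769322, minus strand) and Galnt15 (chr14:32028853-32029152, plus strand) had the lowest folds in Epcam hi at that level. Arhgef3 (chr14:27143743-27144042, plus strand, 29094 bases from the outermost GENCODE start) and Erc2 (chr14:27622157-27622456, plus strand) had the highest folds at that level. Members below it reached beyond some of these, with folds down to -6.61 and, in Ang2, above that of Arhgef3.
Zcchc24: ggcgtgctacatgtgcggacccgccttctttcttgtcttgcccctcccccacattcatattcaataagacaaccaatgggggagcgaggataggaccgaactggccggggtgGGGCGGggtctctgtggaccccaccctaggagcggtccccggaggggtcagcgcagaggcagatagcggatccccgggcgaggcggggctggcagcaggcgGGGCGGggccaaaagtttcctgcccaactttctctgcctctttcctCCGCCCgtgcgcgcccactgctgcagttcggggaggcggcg
Galnt15: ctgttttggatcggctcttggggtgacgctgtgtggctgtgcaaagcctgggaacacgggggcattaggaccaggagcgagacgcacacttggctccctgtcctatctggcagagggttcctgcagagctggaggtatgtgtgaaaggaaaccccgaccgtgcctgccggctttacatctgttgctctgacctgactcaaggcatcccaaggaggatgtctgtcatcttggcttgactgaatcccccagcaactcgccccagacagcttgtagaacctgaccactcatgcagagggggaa
Arhgef3: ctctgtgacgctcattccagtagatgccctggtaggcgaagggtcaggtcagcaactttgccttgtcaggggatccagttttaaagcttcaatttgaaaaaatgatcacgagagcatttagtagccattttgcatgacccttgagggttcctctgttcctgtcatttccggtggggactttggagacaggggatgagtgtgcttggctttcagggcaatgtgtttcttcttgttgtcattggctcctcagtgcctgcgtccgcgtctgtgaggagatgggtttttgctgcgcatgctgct
Erc2: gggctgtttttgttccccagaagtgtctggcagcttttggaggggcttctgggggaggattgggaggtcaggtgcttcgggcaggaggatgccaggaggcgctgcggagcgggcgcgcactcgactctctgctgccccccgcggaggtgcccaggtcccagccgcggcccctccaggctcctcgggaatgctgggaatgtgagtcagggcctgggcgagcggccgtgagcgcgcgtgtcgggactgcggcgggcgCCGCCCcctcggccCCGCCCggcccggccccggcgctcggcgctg
Zcchc24 held 3 GC boxes and 23 CpG, Galnt15 held 0 and 9, Arhgef3 held 0 and 8, and Erc2 held 2 and 31. RefSeq gave a promoter for 193 members. A GC box was present in 62.7% of these and in 65.6% of the 9932 promoters of protein-coding genes tested, and the TATA motif in 7.25% and 6.79%. The median CpG number was 21 in each set.

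Zcchc24, a zinc finger gene at 25711642 to 25769039, had 0.281 and 0.164 CPM in Epcam hi, 58.3 and 71.2 in pB2, 27.7 and 29.6 in pB3, and 20.4 and 19.2 in 687g. It was nearly silent in Epcam hi, with 7 counts over both libraries, and the log2 fold against the mean of the other lines was -7.22 ± 0.30. Galnt15, which encodes an enzyme that starts mucin-type O-glycans, lies at 32028989 to 32062197. It had 0.0702 and 0.219 CPM in Epcam hi and 0.222 and 0.53 in pB2, but 29.7 and 31.6 in pB3 and 128 and 75.8 in 687g. Its fold of -6.07 ± 0.52 thus came from pB3 and 687g, since Epcam hi and pB2 were both near 0. Sall2, a zinc finger transcription factor gene at 52311172 to 52328762, had 0.912 and 0.875 CPM in Epcam hi, 20 and 22.2 in pB2, 12 and 12.1 in pB3, and 5.91 and 3.56 in 687g (-3.57 ± 0.30). Nt5dc2, of the nucleotidase domain family, at 31131053 to 31139124, had 3.93 and 3.77 CPM in Epcam hi, 50.1 and 42.8 in pB2, 24.9 and 28.1 in pB3, and 71.7 and 62.9 in 687g (-3.50 ± 0.20). For Sall2 and Nt5dc2 the Epcam hi libraries lay clear of each other line.

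At the other extreme, Arhgef3 was the member with the largest positive fold under the rule for named genes. It encodes a guanine nucleotide exchange factor for small GTPases and lies at 27114899 to 27403911. It had 98.7 and 79.2 CPM in Epcam hi, 2 and 1.48 in pB2, 20.6 and 23.6 in pB3, and 17.3 and 13.7 in 687g, a log2 fold of 3.41 ± 0.16. The Epcam hi libraries lay above the 6 others, so this gene went against the stretch in each comparison. Erc2, a scaffold gene of presynaptic active zones at 27622428 to 28478537, had 26.2 and 25.1 CPM in Epcam hi, 17.2 and 18.1 in pB3 and 24.4 and 24.7 in 687g, but only 0.222 and 0.159 in pB2. The predicted gene Gm9732, at 43275036 to 43306011, had 24.2 and 30.2 CPM in Epcam hi, 16.6 and 12.6 in pB3, 21.1 and 33.8 in 687g, and 0.592 and 0.424 in pB2. Stab1, which encodes the scavenger receptor stabilin, lies at 31139013 to 31168641 and had 14 and 10.7 CPM in Epcam hi, 0.592 and 0.106 in pB2, 2.89 and 4.27 in pB3 and 30.6 and 43 in 687g. The folds of Erc2 (2.55 ± 0.18), Gm9732 (2.22 ± 0.22) and Stab1 (1.82 ± 0.28) rested mostly on low pB2 values. Against pB3 alone the Epcam hi folds were 0.54, 0.90 and 1.78, and against 687g 0.07, -0.01 and -1.57. In Stab1 the 687g libraries were the highest.

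**Figure D4:**
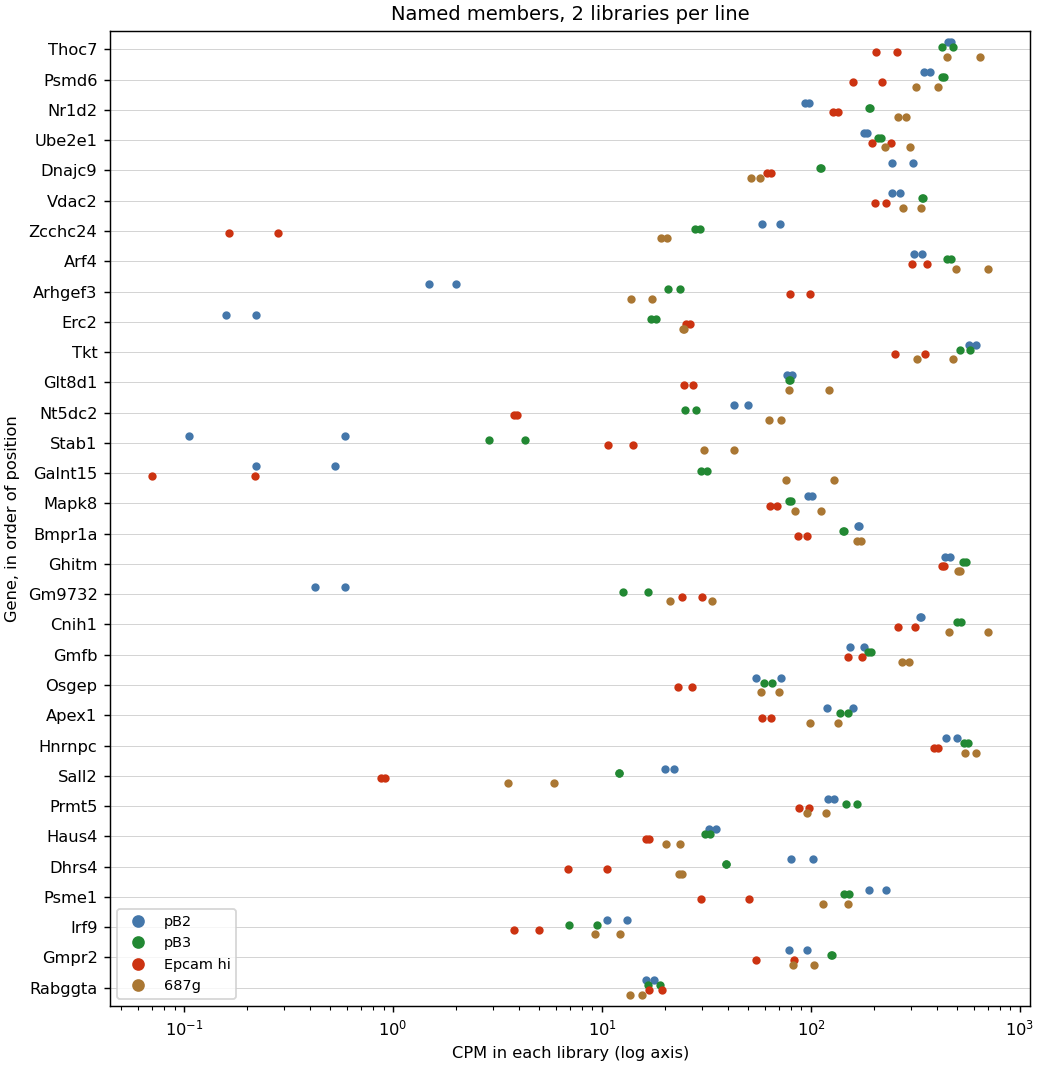
CPM in each of the 8 libraries (log axis) for the named members in order of position, coloured by line. Epcam hi points lie left of the other lines for most genes, for example Osgep, Psme1 and Glt8d1, and right of them for Arhgef3.

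The named lists sort 157 of the 216 members by the role of their product, and 59 are in no list. For the calls in Epcam hi below, the shares over all genes tested were 17.6% lower and 22.6% higher. Of 24 chromatin and transcription genes, 14 were called lower in Epcam hi and 10 not called, with a median of -0.60. None was called higher by edgeR (0), at an unadjusted p under 0.05 (0), by DESeq2 (0) or by limma-voom (0). Nr1d2, the clock repressor REV-ERB beta, had 127 and 134 CPM in Epcam hi, 97.3 and 93.3 in pB2, 189 and 192 in pB3 and 260 and 285 in 687g. Epcam hi was thus between pB2 and the other lines for this gene (-0.38 ± 0.14). Prmt5, an arginine methyltransferase of histones and splicing factors, had 97.3 and 87.6 CPM in Epcam hi, 129 and 120 in pB2, 146 and 167 in pB3, and 118 and 95.3 in 687g (-0.46 ± 0.15), where Epcam hi overlapped with 687g.

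Of 15 RNA processing and translation genes, 11 were called lower in Epcam hi and 2 higher (Rnase4 and Ang), with a median of -0.56. The 11 became 7 without pB3 replicate 1 and 5 without Epcam hi replicate 1, and the 2 became 1 without pB2 replicate 2 or Epcam hi replicate 1. Rnase4 had 108 and 82.6 CPM in Epcam hi, 5.92 and 3.92 in pB2, 167 and 162 in pB3 and 245 and 371 in 687g, so Epcam hi lay above pB2 but below the other 2 lines. Rnase4 and Ang overlap on the same strand, so the counting could split their reads. Hnrnpc, an abundant pre-mRNA binding protein, had 388 and 405 CPM in Epcam hi, 498 and 443 in pB2, 541 and 567 in pB3 and 547 and 618 in 687g (-0.43 ± 0.14). Thoc7, of the THO complex in mRNA export, had 205 and 258 CPM in Epcam hi against 466 and 453 in pB2, 476 and 423 in pB3, and 447 and 646 in 687g (-1.06 ± 0.18). Osgep, a tRNA modification enzyme at 50906478 to 50924893, had 26.9 and 23 CPM in Epcam hi, 71.6 and 54.5 in pB2, 59.8 and 65 in pB3, and 57.8 and 70 in 687g. All 3 were lowest in both Epcam hi libraries, and Osgep had nearly the same fold against each line: -1.33 against pB2, -1.32 against pB3 and -1.35 against 687g.

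Among 15 genes of replication, repair and cell division, 8 were called lower, 1 higher (Tep1, a telomerase-associated protein) and 6 not called, with a median of -0.45. Apex1 encodes the main abasic-site endonuclease of base excision repair and lies at 50924968 to 50927139, next to Osgep on the opposite strand. It had 64.4 and 58.4 CPM in Epcam hi, 159 and 120 in pB2, 138 and 150 in pB3 and 134 and 99.3 in 687g, a log2 fold of -1.11 ± 0.18 that left the Epcam hi libraries lowest. Haus4, of the augmin complex of the spindle, had 16.2 and 16.7 CPM in Epcam hi, 32.5 and 34.9 in pB2, 31.2 and 32.9 in pB3, and 20.2 and 23.6 in 687g (-0.80 ± 0.16). Dnajc9, a histone chaperone with a J domain, followed another order, with 51.7 and 57.2 CPM in 687g, 64.1 and 61.4 in Epcam hi, 110 and 111 in pB3 and 307 and 244 in pB2. The lowest line for Dnajc9 was 687g, so this gene did not set Epcam hi apart.

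The ubiquitin, NEDD8 and proteasome list had a median of -0.83, with 10 of 16 called lower and 0 higher by edgeR. At an unadjusted p under 0.05, 1 was higher, and DESeq2 and limma-voom called 0. Without Epcam hi replicate 2, edgeR called 1 higher, Ube2e2, named after its value was seen. Psme1 encodes the alpha subunit of the PA28 activator, which opens the proteasome and is induced by interferon, and lies at 55578123 to 55581529. It had 50.3 and 29.7 CPM in Epcam hi, 229 and 189 in pB2, 144 and 152 in pB3 and 114 and 150 in 687g (-2.00 ± 0.22). Psmd6, of the regulatory particle of the proteasome, had 159 and 219 CPM in Epcam hi, 370 and 348 in pB2, 434 and 425 in pB3 and 319 and 403 in 687g (-1.01 ± 0.17). Both genes were lowest in the 2 Epcam hi libraries. Beyond the rule, and chosen after their values were seen, the partner subunit Psme2 (-1.64 ± 0.20), the ubiquitin-like modifier Nedd8 (-1.12 ± 0.16) and the catalytic subunit Psmb5 (-1.03 ± 0.17) did the same. The conjugating enzyme gene Ube2e1 did not: it had 195 and 240 CPM in Epcam hi, 185 and 178 in pB2, 215 and 210 in pB3 and 225 and 298 in 687g (0.01 ± 0.15). Its fold was 0.15 without Epcam hi replicate 1 and -0.22 without Epcam hi replicate 2.

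Of 15 genes for mitochondrial proteins, 10 were called lower and 1 higher, with a median of -0.80 in Epcam hi and 0.66 in pB2. Dhrs4, a carbonyl reductase at 55478758 to 55490340, had 6.88 and 10.6 CPM in Epcam hi, 102 and 80.1 in pB2, 39.2 and 39.1 in pB3 and 24.1 and 23.2 in 687g (-2.32 ± 0.20). Vdac2, a channel of the outer membrane, had 202 and 229 CPM in Epcam hi, 244 and 265 in pB2, 344 and 338 in pB3 and 275 and 335 in 687g (-0.47 ± 0.15). Ghitm, an inner membrane protein, had 431 and 425 CPM in Epcam hi, 460 and 436 in pB2, 532 and 554 in pB3, and 505 and 517 in 687g. The Ghitm difference of -0.22 ± 0.13 was small and not called, though the Epcam hi libraries were the lowest. The 1 gene called higher, Oxsm, encodes the ketoacyl synthase of mitochondrial fatty acid synthesis and had 24.4 and 24.2 CPM in Epcam hi, 13.4 and 12.4 in pB2, 18.9 and 19.3 in pB3 and 13.6 and 15.8 in 687g (0.67 ± 0.15).

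In the secretory pathway and membrane traffic list, 16 of 25 were called lower and 1 higher (Anxa11), with a median of -0.62. The 1 became 0 without pB2 replicate 1 or 2, pB3 replicate 1 or 2, Epcam hi replicate 1 or 2, or 687g replicate 2, and with DESeq2. Glt8d1, a Golgi glycosyltransferase gene at 31001400 to 31011991, had 24.7 and 27.3 CPM in Epcam hi, 81.4 and 76.3 in pB2, 78.6 and 79.4 in pB3 and 78.5 and 122 in 687g (-1.72 ± 0.19). Like Osgep, it was nearly level in the other 3 lines. Cnih1, a cargo receptor for export from the endoplasmic reticulum, had 259 and 315 CPM in Epcam hi, 331 and 336 in pB2, 524 and 501 in pB3, and 459 and 704 in 687g (-0.69 ± 0.18). Arf4, a small GTPase of the Golgi, had 305 and 359 CPM in Epcam hi, 339 and 310 in pB2, 445 and 468 in pB3 and 492 and 706 in 687g. Epcam hi overlapped with pB2 for Arf4, which was not called (-0.43 ± 0.16, edgeR adjusted p 0.0548).

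The cytoskeleton and adhesion list stood closest to the value of all genes, with a median of -0.14 in Epcam hi, 6 of 17 called lower and 4 higher. The list had medians of -0.97 in pB2 and 0.89 in 687g. Among the 4 were Arhgef3, Stab1 and Anxa8. Gmfb, a factor that debranches actin filaments, had 151 and 176 CPM in Epcam hi, 153 and 179 in pB2, 194 and 188 in pB3, and 294 and 273 in 687g. Its fold of -0.35 ± 0.14 was not called (edgeR adjusted p 0.0692) and became -0.54 without Epcam hi replicate 2.

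Of 14 signalling and cell death genes, 6 were called lower and 0 higher in Epcam hi by edgeR, with a median of -0.41. The number higher was also 0 at an unadjusted p under 0.05, with DESeq2 and with limma-voom. Bmpr1a, a type I receptor for bone morphogenetic proteins, lies at 34410734 to 34503341. It had 86.4 and 96.1 CPM in Epcam hi, 167 and 170 in pB2, 144 and 142 in pB3 and 173 and 165 in 687g (-0.81 ± 0.14). Mapk8, the stress kinase JNK1, had 63.9 and 68.7 CPM in Epcam hi, 101 and 97.1 in pB2, 78.2 and 80.5 in pB3 and 83.8 and 112 in 687g (-0.47 ± 0.15). Irf9, the DNA-binding subunit of the interferon-activated complex ISGF3, had 4.98 and 3.77 CPM in Epcam hi, 13.2 and 10.5 in pB2, 6.92 and 9.45 in pB3 and 12.2 and 9.26 in 687g (-1.21 ± 0.24). For Bmpr1a, Mapk8 and Irf9 both Epcam hi libraries lay below the 6 others.

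Metabolic enzymes and transporters gave 10 called lower, 3 higher and 3 not called of 16, with a median of -0.60. Tkt, the transketolase of the pentose phosphate pathway at 30548359 to 30574720, had 351 and 251 CPM in Epcam hi, 618 and 570 in pB2, 517 and 576 in pB3 and 478 and 320 in 687g (-0.75 ± 0.19), with an overlap between Epcam hi and 687g. Gmpr2, a guanosine monophosphate reductase, had 82.7 and 54.7 CPM in Epcam hi, 96.1 and 78.7 in pB2, 125 and 127 in pB3 and 82.2 and 104 in 687g. The Gmpr2 fold of -0.55 ± 0.18 rested on the Epcam hi libraries, at -0.88 without replicate 1 and -0.36 without replicate 2. The last member by position, Rabggta (55715416 to 55722263), encodes the alpha subunit of an enzyme that adds lipid to Rab proteins. It had 19.4 and 16.8 CPM in Epcam hi, 16.2 and 17.7 in pB2, 16.7 and 18.9 in pB3, and 13.6 and 15.5 in 687g, and the lines could not be told apart by more than the spread of the libraries (0.14 ± 0.16, and 0.04 without Epcam hi replicate 1).

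**Figure D5:**
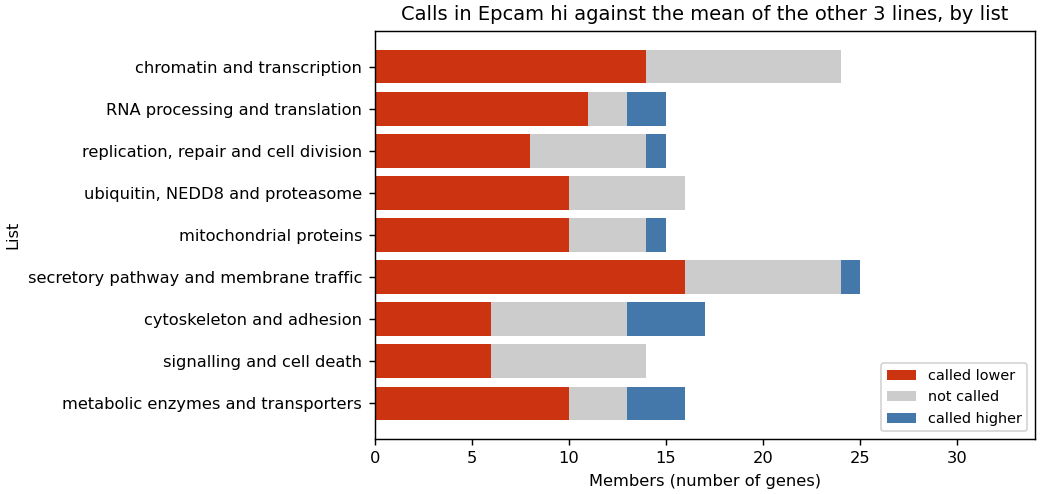
Number of members in each list (bar length) called lower (red), not called (grey) or called higher (blue) in Epcam hi against the mean of the other 3 lines. Called-lower genes outnumber called-higher genes in every list shown, least in cytoskeleton and adhesion with 6 against 4.

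The 19 members called higher in Epcam hi were spread over the stretch. Besides those named above they included Acox2, Slc4a7, Gng2, Sh3bp5, Ogdhl, Ang2, Rem2 and Tgm1, named after their values were seen. In 15 of the 19 pB2 was the lowest line, and in 8 Epcam hi was the highest. In 6 the mean CPM of Epcam hi was below the plain mean of the other 3 lines. Acox2, a peroxisomal oxidase, had 15.1 and 5.85 CPM in Epcam hi but 44 and 47.4 in pB2, with 2.55 and 1.29 in pB3 and 0.39 and 0.201 in 687g. Tgm1, a transglutaminase, had 1.68 and 1.31 CPM in Epcam hi and 8.51 and 10.6 in pB2, and at most 0.167 in the libraries of pB3 and 687g. For Acox2 and Tgm1 Epcam hi was thus well below pB2. Sh3bp5 had 70.2 and 41.9 CPM in Epcam hi, 4.14 and 4.98 in pB2, 106 and 111 in pB3 and 75 and 55.8 in 687g, so Epcam hi was above pB2 only. Rem2, a GTPase that inhibits calcium channels, had 22.4 and 14 CPM in Epcam hi, 5.99 and 5.4 in pB2, 9.13 and 8.93 in pB3 and 11 and 9.66 in 687g (1.16 ± 0.19). Ang2, of the angiogenin ribonuclease family, had 9.12 and 5.08 CPM in Epcam hi, 3.01 and 5.03 in 687g, 0.336 and 0.647 in pB3 and 0.074 and 0.106 in pB2. The family has near-identical copies, and how reads shared by several genes were treated is not given in the sources used here, so this value is uncertain.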

How the data were processed

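Single-end reads were mapped by the authors to GRCm38 (mm10) with STAR 2.6.1a and an Ensembl annotation, and featureCounts gave strand-specific counts per gene, per the series' design text and the submitters' processing notes. The deposited files hold raw counts, 1 file per library, for the same 53379 genes. GENCODE M21 gave symbols and positions for 53274.

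The test was that of edgeR 4.0.16 (R 4.3.3): filterByExpr, TMM, a quasi-likelihood fit with a coefficient for each line over the 8 libraries, and Benjamini-Hochberg adjustment over 15890 genes. SE is the absolute log2 fold over the square root of F. The fit was tested on simulated counts. DESeq2 1.42.0, limma-voom 3.58.1, other scalings, filters and minimums, and each library left out, were alternatives.

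The stretch, the lists and the rule for named genes were chosen with earlier results of these data known. Named were, per list, the 2 members of highest mean CPM and 1 other of largest fold in Epcam hi, and the 4 largest folds each way (both at 10 CPM or more on the higher side), and the first and last member; 1 of these is not reported here. Scaled by the total counts alone, without TMM, 3 counts correspond to 0.157 to 0.241 CPM, for counting error only.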

Additional observations from a re-analysis of the deposited data

How the results depend on the processing

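The Epcam hi median stayed below 0 and was the farthest from 0 of the 4 lines under each setting tried. It was -0.61 with DESeq2 size factors and with DESeq2 itself, -0.58 with total counts, -0.62 with TMM from genes off chromosome 14, -0.64 without the filter on low counts, and -0.56 over the 164 members at 10 CPM or more over all libraries. Against pB2 it was -0.52, -0.61 and -0.51 with DESeq2 size factors (-0.52 with DESeq2), total counts and no filter. Against pB3 it was -0.57, -0.67 and -0.69 with total counts, TMM off chromosome 14 and no filter, and -0.65 over members at 5 or 10 CPM or more. With total counts it was -0.58 against 687g, and the medians of pB2, pB3 and 687g were 0.26, 0.15 and 0.20; that scaling moved the median of all genes to 0.14 in pB2 and -0.15 in 687g. TMM off chromosome 14 left 3 members with both Epcam hi libraries above the others. Over members at 10 CPM or more, 3 were called lower in pB3 and 14 in 687g.

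With each library left out in turn, the medians ran from -0.69 to -0.60 in Epcam hi, 0.33 to 0.40 in 687g, 0.23 to 0.27 in pB3, and -0.0067 to 0.0999 in pB2, which changed sign without pB2 replicate 2. Against pB2 the Epcam hi median ran from -0.56 to -0.49 and against pB3 from -0.72 to -0.66. Members called ran from 5 to 11 lower and 30 to 68 higher in pB3, and from 69 to 121 lower in Epcam hi against pB3. Members whose libraries did not overlap with the others ran from 3 to 6 below in pB3 and from 3 to 6 above in Epcam hi. The cause was not tested. Where a line was left with 1 library, it was assumed to vary like the others.

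The labels number the replicates 1 and 2 in each line but do not pair them. Deviations of same-numbered libraries correlated with r from -0.10 to 0.17 between lines. With the replicate block, 119 members were called lower in Epcam hi, with a median of -0.60. Nr1d2 was not called with that block or without the filter on low counts. Some calls were also lost with a library left out. Without pB2 replicate 1, Nr1d2, Prmt5 and Hnrnpc were not called, though their folds stayed at -0.39, -0.47 and -0.42. Arf4 was called with DESeq2, limma-voom, TMM off chromosome 14 and no filter, and Gmfb with DESeq2.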
